A study of Mus musculus with 16 samples.

Results

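The somatosensory cortex of AcPb-/- mice that had been kept awake was compared with that of undisturbed wild-type mice, so the contrast combines a genotype with 8 h of sleep disruption (SD). The members were the 20560 genes, of 24421 listed, that were detected by 1 read or more in any of the 6 libraries compared, and no measured difference was used to choose them. The SD-AcPbKO group held 3 libraries of homozygous AcPb-/- mice handled gently to keep them awake from ZT20 to ZT4 (ZT0 is lights on), and the CTL-WT group held 3 libraries of C57BL/6 mice (C57/BL6J in the study's methods) left alone. All were collected at ZT4, at 2 to 3 months of age, from mice that the labels call male, with 1 mouse to a library as the labels count them. The labels name no promoter or cell type that would limit the deletion, and both lines were bred in house for several generations. The whole series has 16 samples in the labels and columns for 12 libraries, 3 in each of the groups CTL-WT, SD-WT, CTL-AcPbKO and SD-AcPbKO, and the other 4 samples were not analysed here.

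AcPb is a neuron-enriched splice form of the interleukin-1 receptor accessory protein, encoded by Il1rap. The common form of the protein joins the ligand-bound interleukin-1 receptor and starts inflammatory signalling, while AcPb replaces its intracellular end and changes that signal in neurons. Staying awake is known to raise mRNAs of chaperones of the endoplasmic reticulum (ER) and of genes induced by corticosterone, to lower cold-inducible and sterol synthesis mRNAs, and to shift clock genes in the rodent cortex.

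The values are read counts divided by a size factor for each library (normalized counts), and each log2 difference is the mean of log2(normalized count + 1) in SD-AcPbKO minus that in CTL-WT, with its standard error (SE) and the Benjamini-Hochberg adjusted p of limma. Of the 20560 genes tested, 5697 (27.7%) were past an adjusted p of 0.05, 2900 higher (14.1%) and 2797 lower (13.6%), and in 8708 (42.4%) the groups did not overlap. Most differences were small: 3590 of the 5697, 63.0%, lay under 0.5 in size, and 520 reached 1, of which 267 were higher and 253 lower. The median difference over all genes was 0.01.

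Several libraries stood apart. Reads on genes numbered 32870075 to 41615582 in CTL-WT and 63413467 to 71857505 in SD-AcPbKO, so depth and group cannot be told apart. Xist, the RNA that silences an X chromosome in females, had 13, 32698 and 39358 reads in CTL-WT-01, CTL-WT-02 and CTL-WT-03 and 5 to 13 in SD-AcPbKO, while the Y-linked genes Uty, Kdm5d, Eif2s3y and Ddx3y, 4 in all, summed to 5398, 0 and 2 reads against 9093 to 10152. CTL-WT-02 and CTL-WT-03 thus went against the label male, and the genes named by rule and the gene lists were also computed without them. With CTL-WT-01 as the lone control no gene of 20348 passed in limma (5065 at an unadjusted p under 0.05). With a term for Xist in the fit of all 12 libraries 4684 genes passed, 3979 of them among the 5697.

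**Figure D1:**
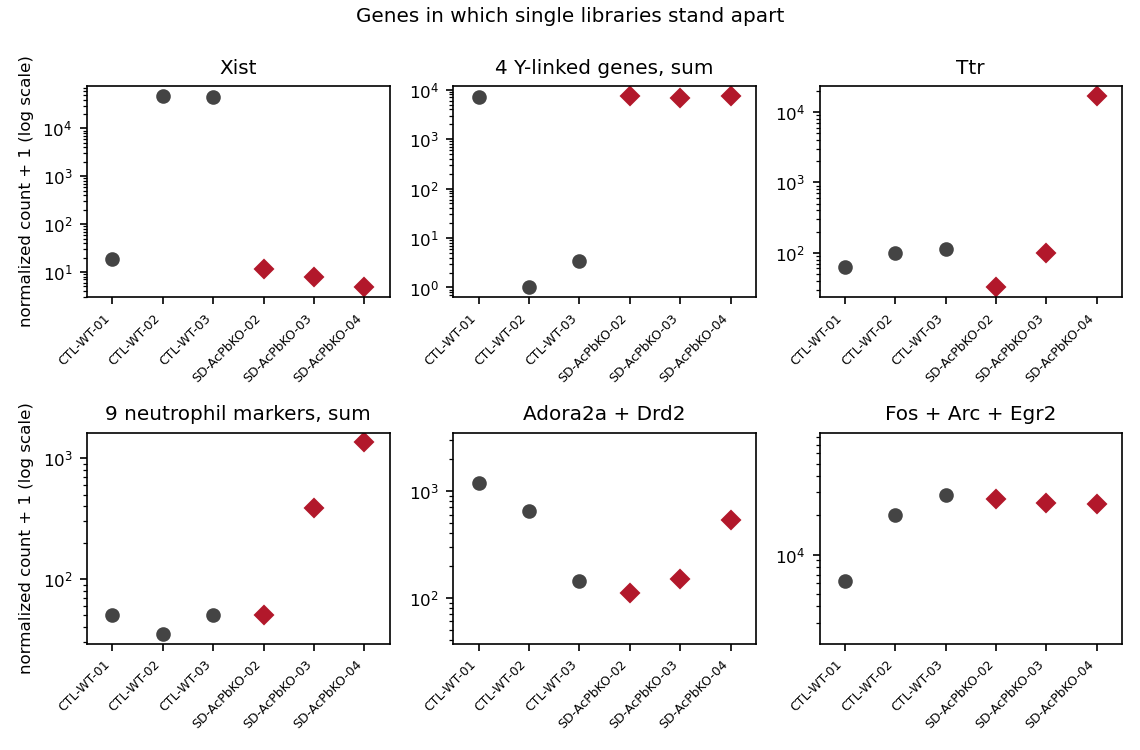
Normalized counts + 1 (log axis) of 6 genes or gene sums in the 3 CTL-WT libraries (circles) and the 3 SD-AcPbKO libraries (diamonds). Xist was high in CTL-WT-02 and CTL-WT-03, Ttr reached 17063 in SD-AcPbKO-04, the summed neutrophil markers were 384 and 1356 in SD-AcPbKO-03 and SD-AcPbKO-04, and Fos, Arc and Egr2 together were lowest in CTL-WT-01.

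The plot of genes in which single libraries stand apart shows further differences of this kind. Ttr, the transthyretin mRNA of the choroid plexus, had 62.6, 99.4 and 111 normalized counts in the CTL-WT libraries and 31.1, 98.7 and 17063 in the SD-AcPbKO libraries; SD-AcPbKO-04 alone was high, as it was for the choroid plexus genes Kl (303, 175 and 1113 in SD-AcPbKO), Clic6 (12.3, 17.3 and 381) and Otx2 (2.45, 3.45 and 92.7). Of 8 choroid plexus markers 0 passed in limma, 1 in DESeq2 and 2 in edgeR. Adora2a, a receptor of striatal neurons, ranged from 105 to 857 in CTL-WT and from 76.9 to 286 in SD-AcPbKO, and 0 of 12 striatal markers passed in limma, DESeq2 or edgeR. The haemoglobin genes of the red blood cell list were at 0 in all 6 libraries. The ribosomal protein gene Rpl26 and the oxidative phosphorylation gene Ndufs5 were at 0 as well, and the reason was not tested. The other 3 red blood cell genes summed to 157 to 385 normalized counts in CTL-WT and 201 to 370 in SD-AcPbKO. Markers of cortical neurons were abundant: the summed level of 10 glutamatergic markers was 299816 to 340548 normalized counts in CTL-WT and 329218 to 379586 in SD-AcPbKO.

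Il1rap itself, at chr16:26581704-26730117 (mm10), was higher in SD-AcPbKO. It had 1575, 1556 and 1604 normalized counts in the CTL-WT libraries and 2178, 2033 and 2028 in the SD-AcPbKO libraries, a difference of 0.40 (SE 0.06, adjusted p = 0.00156), and the groups did not overlap. The counts sum the splice forms of the gene, so they do not check the AcPb genotype. In a fit of all 12 libraries Il1rap differed by 0.28 (SE 0.06, adjusted p = 0.00357) between SD-WT and CTL-WT and by 0.11 (SE 0.06, adjusted p = 0.863) between SD-AcPbKO and SD-WT.

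Plin4, a lipid droplet coat protein, had 72.0, 163 and 104 normalized counts in the CTL-WT libraries and 954, 467 and 815 in the SD-AcPbKO libraries, a difference of 2.73 (SE 0.31, adjusted p = 0.000552). Every SD-AcPbKO library exceeded every control, and the 12 highest and 12 lowest genes were chosen among genes whose groups did not overlap. Prg4, the secreted lubricant lubricin, had 285, 425 and 503 normalized counts in the CTL-WT libraries and 1249.6, 1645 and 1267 in the SD-AcPbKO libraries and differed by 1.80 (SE 0.19, adjusted p = 0.000409). Rasd1, a dexamethasone-induced small G protein, differed by 1.65 (SE 0.25, adjusted p = 0.00155). Hif3a, a member of the hypoxia-inducible factor family, rose from 236, 462 and 336 to 1156, 801 and 1065, a difference of 1.58 (SE 0.22, adjusted p = 0.00109). Dio2, the deiodinase by which astrocytes make active thyroid hormone, rose from 4551, 5057 and 5420.3 to 14794, 9627 and 12422, a difference of 1.28 (SE 0.13, adjusted p = 0.000409). The remaining 7 of the 12 highest were Sult1a1 (1.55), a sulfotransferase, Slc4a11 (1.51), a membrane transporter, Serinc2, Plekhg4 (1.38), Micalcl (1.29), Snora81 (1.28) and Car12 (1.26), a carbonic anhydrase. Snora81 lies inside exons of Eif4a2 and its reads cannot be told apart from those of its host. Plin4, Prg4, Sult1a1 and Plekhg4 overlap exons of Hdgfl2, Tpr, Sgf29 and Kctd19 on the opposite strand, as do Hsp90b1, Dbp and Cnp those of other genes; the strand setting of the counting was not given, so their levels are uncertain to that extent. With CTL-WT-01 as the lone control the difference of Slc4a11 was 0.87.

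Among the genes with the lowest differences, Bace2, an aspartyl protease related to the beta-secretase, had 227, 341 and 355 normalized counts in the CTL-WT libraries and 67.1, 84.2 and 62.1 in the SD-AcPbKO libraries, a difference of -2.08 (SE 0.20, adjusted p = 0.000311). All 3 SD-AcPbKO libraries lay well below the lowest control. Atp5e, the epsilon subunit of ATP synthase, fell from 2102, 2544 and 2552 to 565, 979 and 739.7, a difference of -1.69 (SE 0.17, adjusted p = 0.000343). Opalin, a membrane protein of myelinating oligodendrocytes, fell from 677, 485 and 499 to 128, 304 and 182, a difference of -1.51 (SE 0.27, adjusted p = 0.00326). Nptxr, the neuronal pentraxin receptor, had 1868, 646 and 611 normalized counts in the CTL-WT libraries and 212, 208 and 375 in the SD-AcPbKO libraries, a difference of -1.82 (SE 0.39, adjusted p = 0.00748). CTL-WT-01 was far above the other controls, and 15.7% of the 100-base stretches of Nptxr were shared with the overlapping gene Npcd. Nptxr lost its call without SD-AcPbKO-02. Others were Gpr137b-ps (-1.88), Samd3 (-1.57), Cenpw (-1.56), a kinetochore protein, Olfr78 (-1.51), an olfactory receptor family member, Sdhaf4 (-1.44), an assembly factor of succinate dehydrogenase, Glrx3 (-1.44), a glutaredoxin, and Rnaset2b (-1.41), which shared 46.2% of its stretches mainly with its copy Rnaset2a. Rnaset2b was at -0.49 with CTL-WT-01 as the lone control and at -0.52 (adjusted p = 0.424) with the term for Xist over 12 libraries, and lost its call without CTL-WT-02, CTL-WT-03 or SD-AcPbKO-02.

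**Figure D2:**
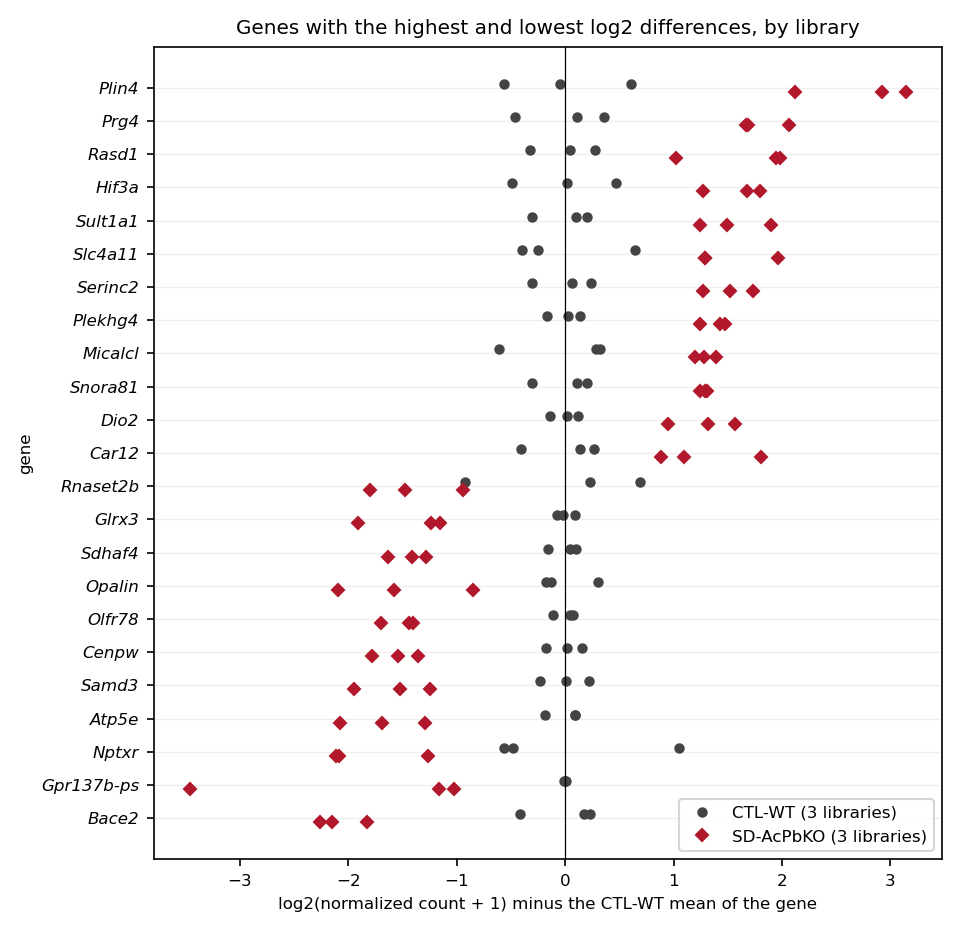
Each library's log2(normalized count + 1) minus the CTL-WT mean of the gene (x axis), for the highest and lowest genes named in the text (rows). Plin4 had the highest difference at 2.73 and Bace2 the lowest at -2.08. Circles are the 3 CTL-WT libraries and diamonds the 3 SD-AcPbKO libraries. The groups do not overlap in any row because only genes without overlap were eligible.

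Genes induced by glucocorticoids rose together. Of 16 tested members 11 were higher and 0 lower, 68.75% past the threshold beside 27.7% of all genes. The median difference was 0.62 beside 0.01 over all genes. Besides Plin4, Hif3a and Sult1a1 they included Fkbp5, a co-chaperone that restrains the receptor, which had 1205, 1262 and 1073 normalized counts in the CTL-WT libraries and 3229, 1885 and 2973 in the SD-AcPbKO libraries and differed by 1.16 (SE 0.17, adjusted p = 0.00137). Cdkn1a, the cell cycle inhibitor p21, rose from 1073, 766 and 867 to 2526, 1475 and 2066, a difference of 1.14 (SE 0.18, adjusted p = 0.00184). The kinase Map3k6 rose as well, Zbtb16 by 0.86, Tsc22d3, the glucocorticoid-induced leucine zipper protein, by 0.62, and the kinase Sgk1 by 0.61. SD-AcPbKO-03 had the smallest rise of the 3 SD-AcPbKO libraries in Plin4, Fkbp5, Cdkn1a and Hif3a. Metallothioneins Mt1 (0.13) and Mt2 (0.26), Pdk4 (-0.25) and Per1 (0.34) did not pass. The count of members past the threshold was 10 to 12 when any of the 6 libraries was left out, and 12 with the term for Xist over 12 libraries.

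Chaperones of the ER also rose. Of 15 tested members 10 were higher and 0 lower, 66.7% beside 27.7% of all genes, with a median of 0.47. Calr, the lectin chaperone calreticulin, had 18463, 14052 and 15089 normalized counts in the CTL-WT libraries and 33501, 29685 and 33709.9 in the SD-AcPbKO libraries, a difference of 1.03 (SE 0.10, adjusted p = 0.000339). Hsp90b1, the ER form of HSP90, differed by 0.86 (SE 0.08, adjusted p = 0.00024), and Hspa5, the ER chaperone BiP, rose from 13028, 9224 and 10012 to 16946, 16767 and 18723, a difference of 0.71 (SE 0.11, adjusted p = 0.00198). All SD-AcPbKO libraries lay above all controls in these 3 genes, and with CTL-WT-01 as the lone control Hspa5 was at 0.42. Protein disulfide isomerases Pdia3 (0.68), Pdia4 (0.63) and Pdia6 (0.47), the secreted factor Manf (0.61), the co-chaperones Dnajb11 (0.47) and Dnajc3 (0.32) and the transcription factor Xbp1 (0.19) rose too. Canx (0.16), Creld2 (0.21), Hyou1 (0.14), Sdf2l1 (0.01) and Herpud1 (-0.16) did not pass.

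The promoters of these chaperones are shown because members of the list moved together. RefSeq promoter windows, 250 bases before to 50 after a gene's start (GRCm38.p6), were at hand for 27025 genes and for 13 of the 15 list members. The ER stress response element, searched as CCAAT and CCACG with 9 bases of any kind between them on both strands, was in the windows of 37 genes, 0.137% of all, and of 7 chaperone list genes (Calr, Canx, Creld2, Dnajc3, Hsp90b1, Hspa5 and Pdia6). Of the 24 genes with the element that were tested, 8 were higher and 1 was lower, beside 14.1% and 13.6% of all genes; 5 of the 8 are members of the list that prompted the search, so the count is no separate result. Other elements searched were CACGTG, with 227 higher and 271 lower of 1499 tested genes, TGATGNAA, with 60 and 59 of 484, and the heat shock element, with 16 and 10 of 98. A glucocorticoid element was in the windows of 3 genes, Sgk1 among them, and a sterol element in those of 27 genes and of 0 of 12 sterol synthesis genes. Capitals mark the element in the windows of Hspa5 (chr2:34771840-34772139, plus strand), Hsp90b1 (chr10:86705395-86705694, minus strand, with 2 matches), Calr (chr8:84846882-84847181, minus strand) and Creld2 (chr15:88819396-88819695, plus strand), the last of which did not pass.
Hspa5: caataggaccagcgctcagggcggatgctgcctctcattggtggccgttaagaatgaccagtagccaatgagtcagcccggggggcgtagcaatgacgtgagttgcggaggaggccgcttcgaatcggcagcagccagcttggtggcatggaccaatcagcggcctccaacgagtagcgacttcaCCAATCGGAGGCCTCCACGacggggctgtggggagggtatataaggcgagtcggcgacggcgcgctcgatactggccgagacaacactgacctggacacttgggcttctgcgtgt
Hsp90b1: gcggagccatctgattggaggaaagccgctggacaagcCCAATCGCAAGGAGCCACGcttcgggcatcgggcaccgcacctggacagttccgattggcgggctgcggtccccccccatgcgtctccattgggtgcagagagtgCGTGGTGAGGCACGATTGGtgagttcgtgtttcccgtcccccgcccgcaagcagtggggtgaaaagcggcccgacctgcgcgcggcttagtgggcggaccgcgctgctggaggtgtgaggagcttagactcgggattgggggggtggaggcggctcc
Calr: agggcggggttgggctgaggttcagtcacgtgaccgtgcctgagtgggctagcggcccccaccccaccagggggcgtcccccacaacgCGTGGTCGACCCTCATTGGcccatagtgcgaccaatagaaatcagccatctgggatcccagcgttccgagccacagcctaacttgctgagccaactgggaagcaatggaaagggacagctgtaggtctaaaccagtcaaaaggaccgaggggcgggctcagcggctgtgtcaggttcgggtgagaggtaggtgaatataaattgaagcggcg
Creld2: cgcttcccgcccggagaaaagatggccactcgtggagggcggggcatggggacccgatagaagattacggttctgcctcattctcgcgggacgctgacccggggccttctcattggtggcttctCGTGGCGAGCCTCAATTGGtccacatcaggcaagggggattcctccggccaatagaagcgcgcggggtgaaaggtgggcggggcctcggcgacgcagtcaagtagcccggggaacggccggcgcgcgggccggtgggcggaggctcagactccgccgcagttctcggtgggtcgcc

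Heat shock proteins of the cytosol and mitochondria were mostly higher as well, 7 of 13 higher and 1 lower, with a median of 0.32. The share past the threshold was 61.5% beside 27.7% of all genes. Hspa8, the constitutive HSP70, had 76056, 63167 and 70265 normalized counts in the CTL-WT libraries and 129713, 120319.6 and 133828 in the SD-AcPbKO libraries, a difference of 0.88 (SE 0.10, adjusted p = 0.000471); 28.2% of its stretches are shared with pseudogenes, as are 38.0% of those of Hsp90aa1. Hsph1, a nucleotide exchange factor of HSP70, differed by 0.82 (SE 0.08, adjusted p = 0.000324) and Hsp90aa1 by 0.71 (SE 0.09, adjusted p = 0.000894). The stress-inducible forms Hspa1a (-0.07) and Hspa1b (0.17) and the co-chaperone Dnajb1 (0.01) did not pass. Hspbp1, a nucleotide exchange factor of HSP70, was the member that fell, from 3117, 3239 and 2963 to 1543, 1818 and 1695, a difference of -0.88 (SE 0.07, adjusted p = 0.000231). A heat shock element, searched on both strands as GAA, TTC and GAA with 2 bases of any kind between neighbours, was in the windows of Hspd1, Hspe1 and Hsph1, 3 of the 10 list genes with a window, and of 179 genes in all, 0.662%. Capitals mark it in the window of Hsph1 (chr5:149636287-149636586, minus strand), a member that rose.
Hsph1: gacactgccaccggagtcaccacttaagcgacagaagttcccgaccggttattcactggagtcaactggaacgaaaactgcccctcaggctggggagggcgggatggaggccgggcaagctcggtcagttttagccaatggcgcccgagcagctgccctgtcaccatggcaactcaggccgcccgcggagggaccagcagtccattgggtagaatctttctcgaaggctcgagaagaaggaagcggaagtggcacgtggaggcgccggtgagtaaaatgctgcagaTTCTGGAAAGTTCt

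Cold-inducible mRNAs fell. Cirbp, an RNA-binding protein whose mRNA follows brain temperature, had 2649, 2807 and 2469 normalized counts in the CTL-WT libraries and 1333, 1521 and 1290.1 in the SD-AcPbKO libraries, a difference of -0.94 (SE 0.08, adjusted p = 0.000231). Rbm3, the other member, fell from 2336, 3041 and 3082 to 1963, 1990.2 and 1833, a difference of -0.54 (SE 0.10, adjusted p = 0.00426). Neither gene overlapped between groups, as was so in 42.4% of all genes. Both passed, beside 27.7% of all genes, and kept the call whichever of the 6 libraries was left out. With CTL-WT-01 as the lone control the difference of Rbm3 was -0.28 and that of Cirbp -0.94.

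Sterol synthesis genes fell, 12 of 18 lower and 0 higher, 66.7% beside 27.7% of all genes, with a median difference of -0.40. Mvd, mevalonate diphosphate decarboxylase, had 1189, 1051 and 1018 normalized counts in the CTL-WT libraries and 541, 659.7 and 523 in the SD-AcPbKO libraries, a difference of -0.92 (SE 0.10, adjusted p = 0.000552). Insig1, the sterol sensor of the ER, fell from 3685, 3821 and 3467 to 2026, 2419 and 2004, a difference of -0.77 (SE 0.08, adjusted p = 0.000409). Dhcr7 differed by -0.71 (SE 0.08, adjusted p = 0.000596), Mvk by -0.68 and Hmgcs1 by -0.62. Cyp51 (-0.09) and Sc5d (0.07) did not pass. Leaving out any library gave 11 or 12 members lower.

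Targets of ATF4, the transcription factor of the amino acid and integrated stress response, went the opposite way from the ER chaperones. Of 14 tested 9 were lower and 0 higher, 64.3% beside 27.7% of all genes, with a median of -0.41. Mthfd2, a mitochondrial folate enzyme, had 378, 439 and 462 normalized counts in the CTL-WT libraries and 195, 218 and 192 in the SD-AcPbKO libraries, a difference of -1.07 (SE 0.12, adjusted p = 0.000444). Chac1, a glutathione-degrading enzyme, had 492, 500.2 and 499 normalized counts in the CTL-WT libraries and 210.2, 259 and 269 in the SD-AcPbKO libraries, a difference of -1.02 (SE 0.11, adjusted p = 0.000531). Phgdh, the first enzyme of serine synthesis, differed by -0.74 (SE 0.13, adjusted p = 0.00295), Sesn2 by -0.67, Ddit4 by -0.53 and Slc7a11 by -0.44. Atf4 itself (-0.18), Ddit3 (0.11) and Trib3 (-0.65) did not pass. An element of amino acid response genes, TGATGNAA on both strands, was in the windows of 5 of 14 list genes (Asns, Atf3, Chac1, Slc7a11 and Trib3) and of 4.51% of all genes with a window; it is marked in the window of Chac1 (chr2:119350992-119351291, plus strand).
Chac1: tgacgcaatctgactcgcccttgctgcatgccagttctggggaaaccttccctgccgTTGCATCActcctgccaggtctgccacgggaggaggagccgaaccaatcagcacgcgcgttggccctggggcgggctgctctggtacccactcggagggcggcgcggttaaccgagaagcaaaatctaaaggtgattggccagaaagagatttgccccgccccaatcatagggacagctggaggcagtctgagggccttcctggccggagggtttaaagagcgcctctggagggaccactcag

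Clock genes moved in both directions, 6 of 21 higher and 7 lower, 61.9% beside 27.7% of all genes. Per2, a repressor of the clock, had 1446, 2028 and 2324 normalized counts in the CTL-WT libraries and 4200.1, 3354 and 3968 in the SD-AcPbKO libraries, a difference of 1.01 (SE 0.15, adjusted p = 0.00157). The activators Arntl and Npas2 rose by 0.67 (SE 0.10, adjusted p = 0.00134) and 0.64 (SE 0.11, adjusted p = 0.00267). Dbp, an output factor driven by E-boxes, fell from 1238, 2293 and 2089 to 601, 1039 and 607, a difference of -1.32 (SE 0.25, adjusted p = 0.0043), and was at -0.77 with CTL-WT-01 as the lone control, as Npas2 was at 0.37. Ciart, a repressor of the clock activators, had 410.5, 925 and 935 normalized counts in the CTL-WT libraries and 345, 387 and 305 in the SD-AcPbKO libraries and differed by -1.04 (SE 0.27, adjusted p = 0.0183); CTL-WT-01 was nearer to the SD-AcPbKO libraries than the other controls were, and the difference was -0.25 with CTL-WT-01 as the lone control and -0.40 (adjusted p = 0.129) with the term for Xist over 12 libraries. Ciart also lost its call without CTL-WT-02, CTL-WT-03, SD-AcPbKO-02 or SD-AcPbKO-04. With that term 7 list members were higher and 2 lower, and 3 to 9 were lower when 1 of the 6 libraries was left out. The E-box CACGTG was in the windows of 5 of 18 clock genes with a window and of 8.09% of all; the window of Ciart (chr3:95882179-95882478, minus strand) held 3.
Ciart: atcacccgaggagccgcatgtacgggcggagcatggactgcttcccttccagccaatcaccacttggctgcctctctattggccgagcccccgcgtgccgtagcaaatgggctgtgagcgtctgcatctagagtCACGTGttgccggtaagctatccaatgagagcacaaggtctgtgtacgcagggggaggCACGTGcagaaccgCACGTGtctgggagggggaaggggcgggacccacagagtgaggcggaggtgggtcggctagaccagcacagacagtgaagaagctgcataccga

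Of 21 immediate early genes 4 were higher and 3 lower, 33.3% beside 27.7% of all genes. Egr3, a zinc finger factor of active neurons, had 11728, 8566 and 9761 normalized counts in the CTL-WT libraries and 20646, 15172 and 17932 in the SD-AcPbKO libraries, a difference of 0.84 (SE 0.13, adjusted p = 0.00163). The synaptic scaffold gene Homer1 differed by 0.53 (SE 0.11, adjusted p = 0.00654), Fosb by 0.61 (SE 0.18, adjusted p = 0.0318) and Bdnf, a neurotrophin, by 0.42 (SE 0.13, adjusted p = 0.0352). Egr4 fell from 1141, 1762 and 1773 to 718, 689 and 804, a difference of -1.05 (SE 0.15, adjusted p = 0.00136), and Jund differed by -0.51 (SE 0.07, adjusted p = 0.0011). Jund was at -0.10 (limma adjusted p = 0.349) once trends with transcript length and GC content were removed. Btg2 differed by -0.89 (SE 0.29, adjusted p = 0.0435), but by -0.02 with CTL-WT-01 as the lone control and by -0.26 (adjusted p = 0.22) with the term for Xist over 12 libraries, and it passed without CTL-WT-01 but not without any of the other 5 libraries. Fosb lost its call without CTL-WT-01, CTL-WT-02, SD-AcPbKO-02 or SD-AcPbKO-04, and with CTL-WT-01 as the lone control Homer1 was at 0.32 and Egr4 at -0.63. Arc, a regulator of synaptic receptors, had 5328, 17185 and 24484 normalized counts in the CTL-WT libraries and 24142, 22986 and 21964 in the SD-AcPbKO libraries and did not pass (0.81). CTL-WT-01 had less Arc, Fos, Junb, Egr2 and Dusp1 than any of the other 5 libraries. Without it 3 members were higher and 7 lower, and with the term for Xist over 12 libraries 9 were higher and 2 lower.

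**Figure D3:**
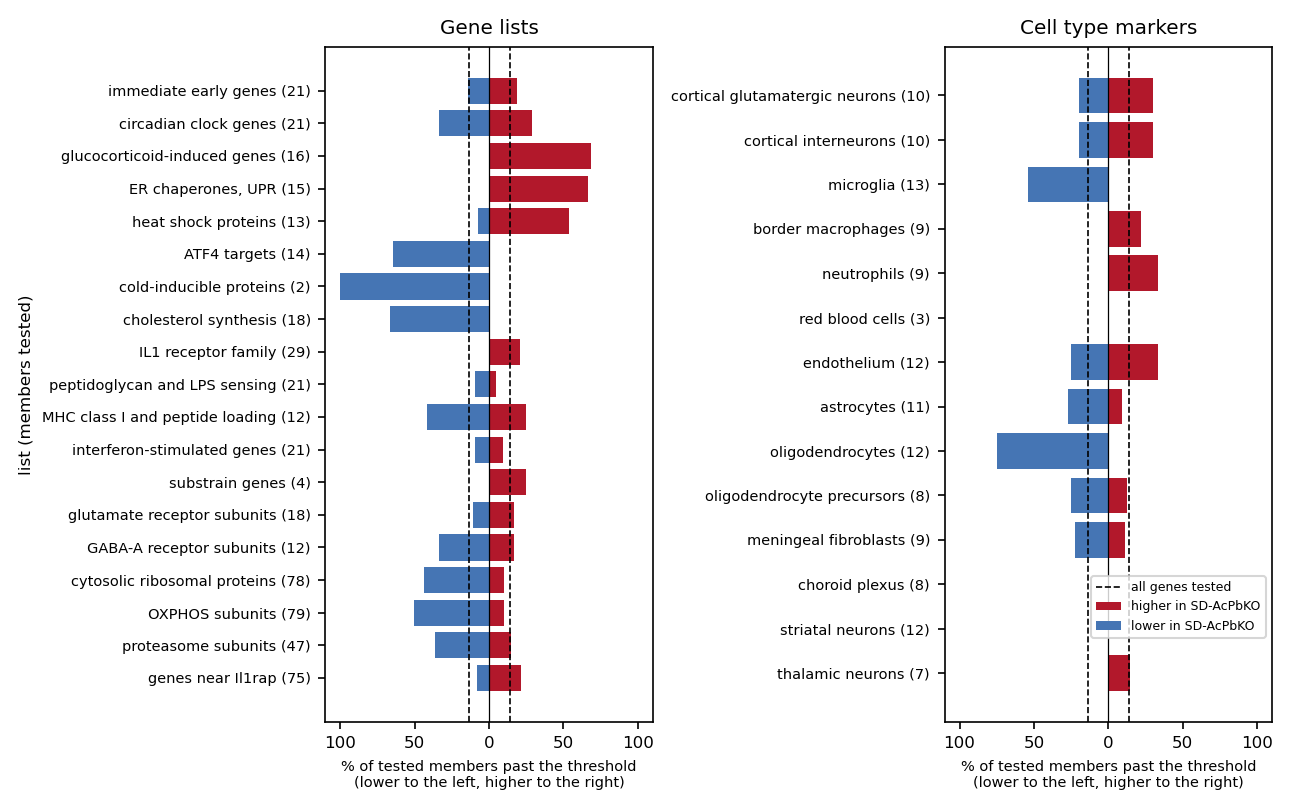
Share of each list's tested members (number in parentheses) past the threshold, higher to the right and lower to the left, with the shares over all genes, 14.1% and 13.6%, as dashed lines. Glucocorticoid-induced genes and ER chaperones lay to the right alone, and ATF4 targets, sterol synthesis genes, microglia and oligodendrocyte markers to the left alone.

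The interleukin-1 receptor family and its signalling chain had 6 of 29 members higher and 0 lower, 20.7% beside the 27.7% of all genes. Il1r1, the signalling receptor for interleukin-1, had 319.8, 322 and 303 normalized counts in the CTL-WT libraries and 475, 633 and 519.8 in the SD-AcPbKO libraries, a difference of 0.77 (SE 0.12, adjusted p = 0.00154). Downstream of the receptor, the adaptor Tab2 differed by 0.41 (SE 0.08, adjusted p = 0.00638) and the kinase Irak2 by 0.39 (SE 0.09, adjusted p = 0.0127), while Myd88 (0.31), Irak1 (-0.05), Irak4 (0.19), Traf6 (0.09) and Rela (-0.07) did not pass. Il18bp, a decoy for interleukin-18, differed by 0.33 (SE 0.11, adjusted p = 0.043). The ligands were scarce: Il1b had 10.7, 14.8 and 7.07 normalized counts in the CTL-WT libraries and 15.5, 15.2 and 23.9 in the SD-AcPbKO libraries and did not pass, although the groups did not overlap, and Il1a had 34.6, 19.3 and 34.2 normalized counts in the CTL-WT libraries and 21.3, 32.4 and 43.4 in the SD-AcPbKO libraries, with overlap. Il1rn, the receptor antagonist, had no reads in CTL-WT and 0.818, 1.38 and 3.74 normalized counts in SD-AcPbKO, a call that rests on a few reads, is lost without any 1 of 5 libraries and was not made by edgeR or DESeq2.

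Receptors for peptidoglycan and lipopolysaccharide gave 1 higher and 2 lower of 21, 14.3% beside 27.7% of all genes. Pglyrp1, a peptidoglycan recognition protein, had 199, 200.4 and 173 normalized counts in the CTL-WT libraries and 254, 293 and 286 in the SD-AcPbKO libraries, a difference of 0.54 (SE 0.12, adjusted p = 0.00948). The Toll-like receptor Tlr4 differed by -0.58 (SE 0.17, adjusted p = 0.0277) and Tlr9 by -0.52 (SE 0.15, adjusted p = 0.0322). Nod1 (-0.22), Nod2 (0.19) and Tlr2 (-0.56) did not pass. Tlr4 lost its call without CTL-WT-02, CTL-WT-03, SD-AcPbKO-02 or SD-AcPbKO-04, and Tlr9 without CTL-WT-01, CTL-WT-02, SD-AcPbKO-02 or SD-AcPbKO-03. With the term for Xist over 12 libraries 0 members were higher and 1 lower.

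Genes of antigen presentation were mixed, with 3 higher and 5 lower of 12 tested, 66.7% beside 27.7% of all genes. H2-T24 had 650.3, 644 and 652 normalized counts in the CTL-WT libraries and 1226, 1147 and 1119.6 in the SD-AcPbKO libraries, a difference of 0.84 (SE 0.07, adjusted p = 0.000231), and B2m, the light chain of class I molecules, differed by 0.40 (SE 0.10, adjusted p = 0.0164). The classical heavy chain H2-K1 differed by -0.58 (SE 0.13, adjusted p = 0.00972) and the peptide transporter Tap1 by -0.83 (SE 0.22, adjusted p = 0.0209); Tap1 overlaps exons of Psmb9 (-0.90) on the opposite strand. Tap1 lost its call without CTL-WT-01, CTL-WT-02 or SD-AcPbKO-02, B2m without CTL-WT-02 or SD-AcPbKO-02, and H2-K1 with the term for Xist over 12 libraries (adjusted p = 0.151). Interferon-stimulated genes had 2 higher (Irf9, Stat2) and 2 lower (Ifi27, Gbp3) of 21, a smaller share than the 27.7% of all genes. Irf9 and Stat2 each lost the call without any 1 of 5 libraries and Gbp3 without any 1 of 4, while Ifi27 kept it.

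Of 12 GABA-A receptor subunits 2 were higher and 4 lower. Gabra2 had 2054, 1927 and 1919.6 normalized counts in the CTL-WT libraries and 4139, 3177 and 3504 in the SD-AcPbKO libraries, a difference of 0.87 (SE 0.09, adjusted p = 0.000409), and Gabrd, the extrasynaptic delta subunit, fell from 4794, 4834 and 5283 to 2931, 3839 and 2720.1, a difference of -0.67 (SE 0.11, adjusted p = 0.00257). Of 18 glutamate receptor subunits 3 were higher and 2 lower, 27.8% beside 27.7% of all genes. The metabotropic receptor Grm2 differed by -0.62 (SE 0.07, adjusted p = 0.000444) and Grm3 by -0.42 (SE 0.09, adjusted p = 0.00611). The higher subunits, Grm8, Gria1 and Grm7, each lost the call when CTL-WT-02, CTL-WT-03, SD-AcPbKO-02 or SD-AcPbKO-04 was left out, and Grm7 also without CTL-WT-01.

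Subunits of large housekeeping complexes were more often lower. Of 79 oxidative phosphorylation subunits 40 were lower and 8 higher, of 78 cytosolic ribosomal proteins 34 and 8, and of 47 proteasome subunits 17 and 7. Over all genes 13.6% were lower and 14.1% higher. Leaving out 1 library gave 6 (without SD-AcPbKO-02) to 19 (without SD-AcPbKO-03) proteasome subunits lower. Ndufa2, of complex I, had 1900.4, 2035 and 2001 normalized counts in the CTL-WT libraries and 661, 962 and 827 in the SD-AcPbKO libraries, a difference of -1.29 (SE 0.12, adjusted p = 0.000245). Rps27a, a ubiquitin and ribosomal protein fusion, fell from 5003, 4511 and 4369 to 1799, 2396 and 2200.3, a difference of -1.13 (SE 0.10, adjusted p = 0.000242), with 17.9% of its stretches shared with pseudogenes. Psmb4, of the proteasome core, differed by -0.82 (SE 0.08, adjusted p = 0.000358). Members of the same complexes rose: Uqcrb by 0.62 (SE 0.07, adjusted p = 0.000589) and Rps24 by 0.78 (SE 0.06, adjusted p = 0.000231), both without overlap. The transcripts of ribosomal proteins had a median length of 1076 bases and those of oxidative phosphorylation subunits 1005, beside 3314 over all genes with a mean of at least 10.

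Length and GC content moved with the direction of change. Among genes with a mean of at least 10, those whose longest transcript had over 60% GC were higher in 6.99% and lower in 36.2% of 744 genes, while at 40 to 45% GC 22.4% were higher and 10.6% lower. Transcripts over 8000 bases were higher in 27.7% and lower in 8.46%, and those up to 1000 bases in 9.82% and 21.1%. After each library's trend with both properties was removed, a step chosen after seeing the data, 5690 genes passed, 4725 of them among the 5697. The counts of glucocorticoid-induced (12 higher), ER chaperone (11 higher), sterol synthesis (12 lower) and ATF4 target genes (9 lower) were then close to those without it, and the ribosomal list had 33 lower and 10 higher. Of the genes named by rule 11 lost the call, among them Jund, Slc32a1, Gad2, Gria1, Grm7 and Grm8.

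**Figure D4:**
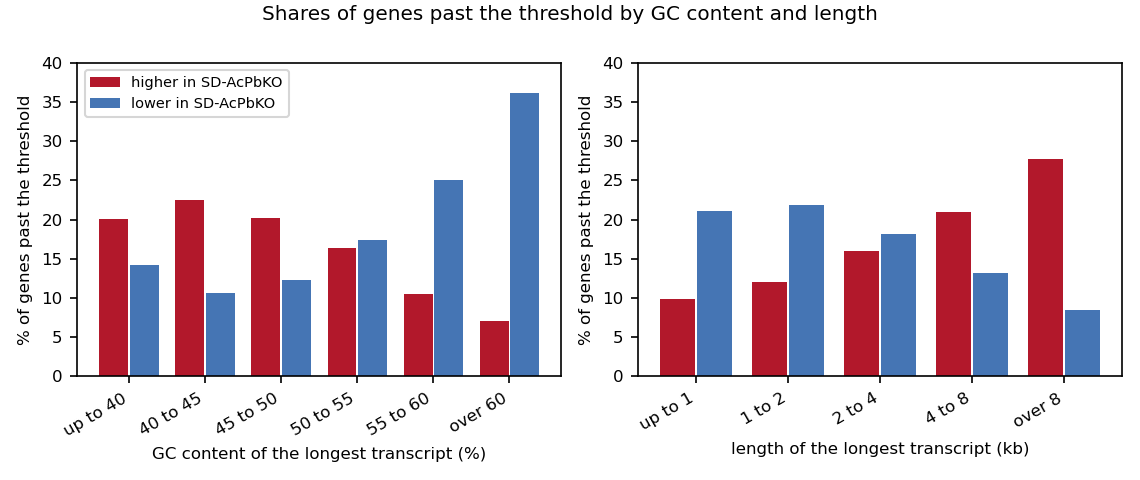
Share of genes with a mean of at least 10 normalized counts that were higher (red) or lower (blue) in SD-AcPbKO, by GC content (left) and length (right) of the longest annotated transcript. The share lower rose to 36.2% above 60% GC, and the share higher rose to 27.7% above 8000 bases.

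Markers of brain cell types also differed; in tissue, fewer cells of a type and less RNA per cell cannot be told apart. Of 12 oligodendrocyte markers 9 were lower and 0 higher, 75.0% beside 27.7% of all genes, with a median of -0.70. Cnp, a myelin enzyme, had 12346, 8587 and 8493 normalized counts in the CTL-WT libraries and 3492, 5338 and 4076 in the SD-AcPbKO libraries, a difference of -1.19 (SE 0.17, adjusted p = 0.00119), and Cldn11, the tight junction protein of myelin, differed by -1.09 (SE 0.16, adjusted p = 0.00147). Mog (-1.01) and Aspa (-1.05) fell, while Mbp had 68724, 59068 and 54614 normalized counts in the CTL-WT libraries and 40165, 61948 and 47069.6 in the SD-AcPbKO libraries and did not pass (-0.31). The summed level of the 12 markers was 125680 to 161289 in CTL-WT and 82362 to 122024 in SD-AcPbKO, with CTL-WT-01 the highest in Cnp, Cldn11 and Opalin. On the 12-library scale it ranged from 60102 to 137752 in the undisturbed CTL-AcPbKO libraries, beside 119123 to 153200 in CTL-WT and 77987 to 115714 in SD-AcPbKO.

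Microglia markers were lower in 7 of 13 and higher in 0, 53.8% beside 27.7% of all genes, with a median of -0.35. Trem2, the lipid receptor of microglia, had 490.4, 554 and 470.5 normalized counts in the CTL-WT libraries and 195, 191 and 246 in the SD-AcPbKO libraries, a difference of -1.26 (SE 0.13, adjusted p = 0.000349). Cx3cr1 (-0.42) and Csf1r (-0.42) fell by less, and the defining markers P2ry12 (-0.04) and Tmem119 (-0.18) did not pass. Border macrophage markers had 2 of 9 higher, 22.2% past the threshold beside 27.7% of all genes. These were Cd163, by 0.75 (SE 0.15, adjusted p = 0.00622), and F13a1, by 0.67 (SE 0.12, adjusted p = 0.0032). Endothelial markers were split, 4 higher and 3 lower of 12, 58.3% past the threshold. Mfsd2a, the lipid transporter of the blood-brain barrier, rose from 866, 1067 and 955 to 2709, 1449.8 and 2123, a difference of 1.08 (SE 0.19, adjusted p = 0.00278). The tight junction gene Cldn5 differed by -0.60 (SE 0.12, adjusted p = 0.00506). Astrocyte markers had 1 higher (Gjb6, 0.53) and 3 lower (Aldh1l1, Slc4a4 and Aqp4) of 11, 36.4% past the threshold. Aldh1l1 lost its call without SD-AcPbKO-02 and Aqp4 without SD-AcPbKO-02 or any of the CTL-WT libraries.

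Neutrophil markers were high in SD-AcPbKO-03 and SD-AcPbKO-04 and not in SD-AcPbKO-02. Lcn2, lipocalin 2, had 9.81, 201 and 273 normalized counts in the SD-AcPbKO libraries, a difference of 3.60 (SE 0.99, adjusted p = 0.0229), and Ngp and Ltf, granule proteins, passed as well. These were 3 of 9 markers tested, 33.3% beside 27.7% of all genes. The summed level of 9 markers was 34.1 to 49.5 in CTL-WT and 49.1, 384 and 1356 in SD-AcPbKO, so SD-AcPbKO-02 was at the level of the controls. Without SD-AcPbKO-03, SD-AcPbKO-04 (the library with choroid plexus genes) or CTL-WT-02 0 markers passed in limma, without CTL-WT-01 or CTL-WT-03 1 did, and without SD-AcPbKO-02 6 did. On the recovered reads DESeq2 called 7 and edgeR 5. The part of neutrophils in the other immune results was not tested.

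Markers of cortical neurons went both ways. Of 10 glutamatergic genes 3 were higher (Neurod6, Fezf2 and Neurod2) and 2 lower (Rorb and Cux2). Of 10 interneuron genes 3 were higher (Lhx6, Vip and Gad2) and 2 lower (Slc32a1 and Cck). The shares over all genes were 14.1% higher and 13.6% lower. Cux2 lost its call without CTL-WT-02 or CTL-WT-03. Fezf2 lost its call without SD-AcPbKO-02, Gad2 without that library, SD-AcPbKO-04 or CTL-WT-03, and Vip without CTL-WT-01, CTL-WT-02, SD-AcPbKO-02 or SD-AcPbKO-04. Neurod6, a transcription factor of pyramidal neurons, had 2476, 2501 and 2944 normalized counts in the CTL-WT libraries and 5296, 4453 and 5804 in the SD-AcPbKO libraries, a difference of 0.97 (SE 0.10, adjusted p = 0.000409). The interneuron transporter gene Slc32a1 differed by -0.39 (SE 0.08, adjusted p = 0.00699). It lost its call (limma adjusted p = 0.147) once trends with transcript length and GC content were removed.

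The contrast was divided into its steps in a fit of all 12 libraries normalized together, in which the SD-AcPbKO minus CTL-WT difference is the sum of SD-WT minus CTL-WT and SD-AcPbKO minus SD-WT. The steps share libraries with the contrast, so they are given side by side. The step of SD in wild-type mice passed in 5108 of 20978 genes (24.3%), the step between genotypes after SD in 5 (0.0238%) and that between undisturbed genotypes in 8 (0.0381%). The step of SD in knockout mice passed in 6485 (30.9%). SD-WT-01, SD-WT-02 and SD-WT-04 held 7, 9 and 11 Xist reads and 58770286 to 71775967 reads on genes. CTL-AcPbKO-04 and CTL-AcPbKO-05 held 25352 and 30306 Xist reads, and the CTL-AcPbKO libraries 26504840 to 35683409 reads on genes. Both SD steps thus also hold the differences in Xist and depth, which cannot be told apart from SD there. The steps between genotypes compare groups closer in both. A departure from the sum of the separate genotype and SD differences (the interaction) passed in 0 genes (0.0%) in limma (839 at an unadjusted p under 0.05), in 0 with edgeR and in 1, Polr2k, with DESeq2.

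In Plin4, Calr, Insig1 and Bace2 the step of SD in wild-type mice passed and that between genotypes did not. Plin4 differed by 2.92 (SE 0.34, adjusted p = 0.000197) in that step and by -0.19 (SE 0.34, adjusted p = 0.962) between genotypes after SD. Calr gave 0.92 (SE 0.09, adjusted p = 0.000134) and 0.12 (SE 0.09, adjusted p = 0.948), Insig1 -0.86 (SE 0.08, adjusted p = 5.2e-05) and 0.08 (SE 0.08, adjusted p = 0.948), and Bace2 -1.92 (SE 0.20, adjusted p = 0.000134) and -0.16 (SE 0.20, adjusted p = 0.949). The median over ER chaperones was 0.42 in the SD step and 0.05 in the genotype step, and over sterol synthesis genes -0.46 and 0.03.

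The ATF4 target Chac1 passed in the genotype step and not in the SD step. On the scale of the 12 libraries Chac1 had 467, 475 and 473 normalized counts in CTL-WT and 419.9, 448 and 567 in SD-WT, but 300.1, 242 and 246 in CTL-AcPbKO and 199, 246 and 255 in SD-AcPbKO, with 0.01 (SE 0.13, adjusted p = 0.995) for SD in wild-type mice and -1.03 (SE 0.13, adjusted p = 0.0188) between genotypes after SD. Both knockout groups lay below both wild-type groups. Mthfd2 showed -0.24 (SE 0.14, adjusted p = 0.241) and -0.84 (SE 0.14, adjusted p = 0.101), and did not pass in either step. Of 14 ATF4 targets 2 were higher and 4 lower in the SD step in wild-type mice, 1 and 5 in that in knockout mice, and Chac1 was the 1 that passed between genotypes after SD; the medians of the first and last of these steps were -0.08 and -0.28. Trem2 had 301, 292 and 308 in SD-WT and 185, 181 and 233 in SD-AcPbKO, and its genotype step after SD was -0.59 (SE 0.11, adjusted p = 0.143).

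**Figure D5:**
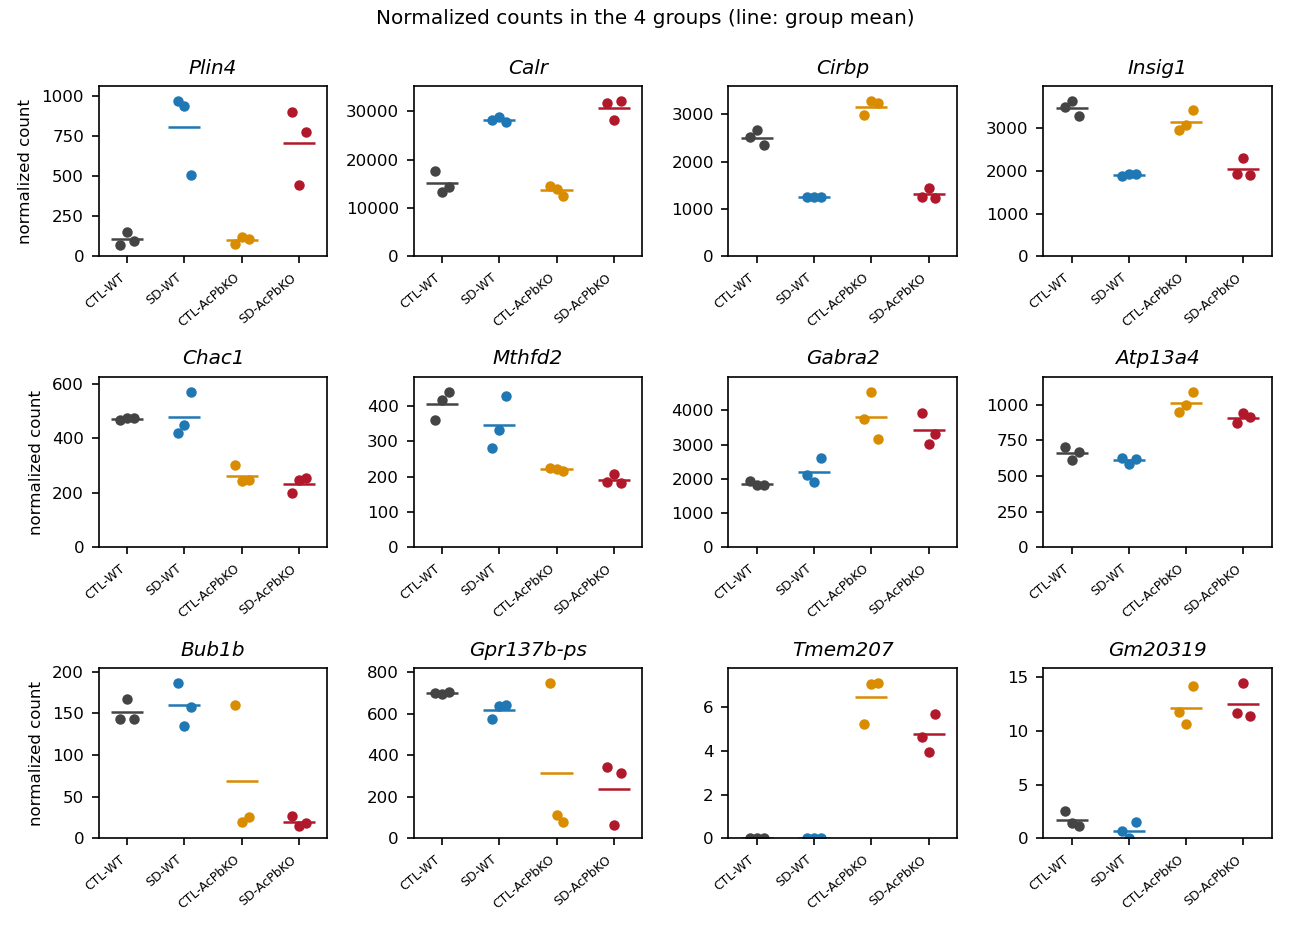
Normalized counts of 12 genes in the 3 libraries of each of the 4 groups (points), with the group mean as a line and each vertical axis from 0. Atp13a4, Tmem207 and Gm20319 passed between genotypes both undisturbed and after SD, Chac1 after SD, Gabra2 undisturbed and Mthfd2 in neither, and in Bub1b and Gpr137b-ps 1 CTL-AcPbKO library lay at the wild-type level.

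Of 75 tested genes within 5 Mb of Il1rap, 16 were higher and 6 lower, 29.3% past the threshold beside 27.7% of all genes. Tmem207 (chr16:26503656-26526769) had no reads in CTL-WT or SD-WT and 5.22, 7.06 and 7.07 normalized counts in CTL-AcPbKO and 4.65, 3.93 and 5.68 in SD-AcPbKO. Gm20319 (chr16:26714446-26755502), on the opposite strand of Il1rap and overlapping its exons, had 2.53, 1.41 and 1.12 in CTL-WT and 11.6, 14.4 and 11.4 in SD-AcPbKO, and without a stated strand setting its reads and those of Il1rap cannot be told apart. Atp13a4 (chr16:29395853-29544864), a cation-transporting ATPase, had 708, 616 and 666 and 869.6, 944 and 917, a genotype step after SD of 0.57 (SE 0.07, adjusted p = 0.0188). Rtp1, a receptor-transporting protein, had 5.33, 32.7 and 16.5 normalized counts in the CTL-WT libraries and 279, 72.5 and 175 in the SD-AcPbKO libraries, and its step of SD in wild-type mice was 3.36 (SE 0.54, adjusted p = 0.00108), so not all of these genes followed genotype. Among 4 genes known to differ between C57BL/6 substrains 1 passed, 25.0% beside 27.7% of all genes. The other 3 did not, and the lowest difference in the list was -0.83. The gene that passed was Gabra2 (chromosome 5), at 1951, 1828 and 1819 in CTL-WT and 3753, 4525 and 3152 in CTL-AcPbKO. Its step between undisturbed genotypes was 1.01 (SE 0.14, adjusted p = 0.0265). The knockout and the background it was bred on cannot be told apart in these groups.

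Bub1b, a mitotic checkpoint kinase on chromosome 2 named after its values were seen, fell from 151, 177 and 151 to 27.8, 15.9 and 19.4, a difference of -2.90 (SE 0.23, adjusted p = 0.000231). In the 12-library scale CTL-AcPbKO-03 had 160 where CTL-AcPbKO-04 and CTL-AcPbKO-05 had 19.4 and 25.5, and SD-WT had 186, 135 and 158. Gpr137b-ps, a transcribed pseudogene on chromosome 13, also had CTL-AcPbKO-03 above the other CTL-AcPbKO libraries: 746, 113 and 79.2 in CTL-AcPbKO-03, CTL-AcPbKO-04 and CTL-AcPbKO-05, beside 703, 697 and 704 in CTL-WT. It had 343, 62.8 and 314 in SD-AcPbKO, where SD-AcPbKO-03 was lowest, and it lost its call without any 1 CTL-WT library and in DESeq2 (adjusted p = 0.06). CTL-AcPbKO-03 had Tmem207 and Gm20319 at the level of the other knockout libraries. CTL-AcPbKO-04 and CTL-AcPbKO-05 held 25352 and 30306 Xist reads and CTL-AcPbKO-03 held 12, while the SD-AcPbKO libraries, all low in Bub1b, held 5 to 13. Olfr78, among the lowest genes, had a step of SD in wild-type mice of -0.60 (SE 0.24, adjusted p = 0.0894) and a step between genotypes after SD of -0.91 (SE 0.24, adjusted p = 0.399), so neither step passed alone.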

How the data were processed

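Total RNA of the somatosensory cortex was made into stranded mRNA libraries (TruSeq). By the submitters' processing notes, reads were demultiplexed with bcl2fastq, aligned with HISAT2 2.2.1 to mm10, counted with featureCounts and normalized with DESeq2 1.31.16; the study's methods name HTSeq as the counter. The gene annotation and strand setting are not given in the sources used here. The deposited values are signal: the authors scaled the counts of a library by 1 size factor. Their log2 fold changes, standard errors on the log2 scale, Wald statistic (a score), p-value and adjusted p columns and mean signal over libraries were deposited beside them and were not used. No column of other samples was set aside (0).

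Dividing out the size factors gave whole reads, within 0.01 read, for 100.0% of 732630 values, and 0 of 439578 values differed between tables. No replicate pair was within sampling noise. The plan named limma for normalized counts and edgeR for raw counts. As the values were normalized, the main test was limma 3.58.1 (R 4.3.3) on log2(normalized count + 1), with the trend option. It covered genes with a read in 1 or more of the 6 libraries and left 4 residual degrees of freedom. A joint fit of 12 libraries, normalized by median ratios, had 8. edgeR 4.0.16 and DESeq2 1.42.0 were run on the recovered reads as alternatives and called 5796 and 5761 genes. The fits were tested on simulated counts. These were drawn independently for each gene and library, so they do not test the effect of libraries that stand apart. P-values measure the spread between these libraries.

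Gene symbols were matched to GENCODE M21 (mm10) with RefSeq synonyms, 98.4% of 24421. The members and all 33 lists were chosen with earlier results of these data known. By rule the text names the 12 highest and 12 lowest differences among called genes whose mean was 100 or more, with no overlap, off X and Y and not predicted, the top 3 each way of each list, Il1rap, Xist and 4 Y-linked genes; other genes were named after their values were seen, and a few that the rule names are not reported here. Motifs and 100-base stretches shared with other genes' transcripts were counted by exact match. Of the lists, red blood cells (0 of 3 tested), oligodendrocyte precursors (1 higher, 2 lower of 8), meningeal fibroblasts (1 and 2 of 9) and thalamic neurons (1 and 0 of 7) are not described further. Alternatives are given after the report.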

Additional observations from a re-analysis of the deposited data

How the results depend on the processing

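Of 5697 genes past the threshold, 2860 passed an adjusted p of 0.01 and 2107 also reached a log2 difference of 0.5. With a term for Xist in the 6-library fit (3 residual degrees of freedom) 1096 passed, and with only the library without Xist reads as control, assumed to vary like the other group, 0 passed. Leaving out 1 library gave 3393 (without CTL-WT-02) to 6008 (without SD-AcPbKO-03) genes, and 3534 without SD-AcPbKO-02. Numbers 02 and 03 are shared by the groups, and the deviations of same-numbered libraries correlated at -0.01 and 0.21 over 13199 genes. Libraries of unlike number correlated at -0.26 to 0.16, so these values do not settle whether the numbers pair the samples. A replicate block left 1 residual degree of freedom and 0 genes (4677 at an unadjusted p under 0.05). Other pseudocounts, filters, tools, thinning and the joint fit gave 5358 to 5962, and a term for Xist in the joint fit 4684. The interaction passed in 0 genes, in 1 with DESeq2 and in 0 to 9 when 1 of the 12 libraries was left out; the 9, among them Foxp2, Nr4a2 and Sstr2, appeared without CTL-AcPbKO-03. Reversed differences were Ddx3y, at -0.32 with only libraries without Xist reads and with the Xist term in 6 libraries and at -0.29 with it in 12, and Kdm5d, at -0.11 in 12. The cause of these shifts was not tested. Among lists, 10 of 33 counts moved by over 1.5 times with the Xist term in 12 libraries, the proteasome list from 17 to 9 lower, and 27 in 6 libraries, ATF4 targets from 9 to 3 and sterol synthesis genes from 12 to 5 lower. With the lone control no list had a member past the threshold, and the medians were 0.90 for glucocorticoid-induced genes, 0.39 for ER chaperones, -0.43 for sterol synthesis genes and -0.30 for ATF4 targets. Depth, lower in all CTL-WT libraries, limits genes with few reads; thinning to the smallest total left 5358.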
